A study of Mus musculus with 16 samples.

Results

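The genes of the nitric oxide and endothelin axis were described in sorted liver cells: Nos3, Klf2, Edn1, Ece1, Ednra, Ednrb, Gucy1a3, Gucy1b3, Prkg1 and Pde5a. They were chosen by symbol for their place in the pathway, with earlier results of these data known, and are 10 of the 47729 genes of the count tables. Each of the 10 symbols matched 1 identifier.

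RNA was sequenced from endothelial cells (EC), hepatic stellate cells (HSC), Kupffer cells (KC) and hepatocytes (HC) of unchallenged livers of adult mice, in 16 libraries with 2 for each cell type and genotype label. Mice carried floxed Zeb2 alleles, with loxP sites around exon 7, from a line on a Cre-dependent eGFP reporter background. Animals labelled KO also carried the tamoxifen-inducible Cdh5-CreERT2 driver, which is active in endothelium, whereas animals labelled WT were littermates without Cre. All mice, WT included, received tamoxifen at 2 mg per day for 5 days. They were 8-week-old males, and cells were taken 2 weeks after tamoxifen. Cells were sorted by vitamin A autofluorescence (HSC), F4/80 (KC) or a pan-endothelial antibody (EC), and hepatocytes were collected by centrifugation, so neither Zeb2 loss nor the reporter was used as a gate. Nothing in the labels says whether libraries of a group, or of different cell types, came from separate mice, so p-values measure only the spread between libraries, which may be technical.

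Endothelial nitric oxide synthase, the product of Nos3, makes nitric oxide from arginine, and the flow-responsive transcription factor Klf2 induces it. Nitric oxide crosses to contractile neighbours, where it activates soluble guanylate cyclase, a dimer of the Gucy1a3 and Gucy1b3 products. The cGMP that follows activates the kinase Prkg1 and relaxes the cell, until Pde5a breaks cGMP down. Endothelin-1, from Edn1, is matured by the protease Ece1 and acts on the receptors Ednra and Ednrb. In the liver, HSC wrap the sinusoids and contract to endothelin, and sinusoidal endothelium is known for a basal release of nitric oxide.

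Upstream sequence is shown for the endothelial source genes that had a RefSeq promoter entry, Klf2 and Edn1, and for the receptor gene Ednra as a counterpart from the stellate side, chosen after its values were seen. RefSeq entries were matched for 9 of the 10 genes, all but Nos3. Only bases outside the annotated gene are printed, on the GRCm38.p6 build and 5′ to 3′ on the gene's strand. Capitals mark matches to the letters searched, which were TGANTCA for AP-1, AGATAA for GATA factors, CACCC for KLF factors, TATAAA for a TATA box, and CTA, any 4 bases, then TAG for MEF2. Matches to the ETS letters ACCGGAA and AGGAA were counted but left in lower case. All were searched on both strands, in the 250 bases before the start.
Klf2, chr8:72318812-72319032, plus strand: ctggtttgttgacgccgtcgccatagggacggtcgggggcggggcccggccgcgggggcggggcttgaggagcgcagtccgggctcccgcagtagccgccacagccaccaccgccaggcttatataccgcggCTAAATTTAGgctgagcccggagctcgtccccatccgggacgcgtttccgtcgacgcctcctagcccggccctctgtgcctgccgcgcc
Edn1, chr13:42301226-42301475, plus strand: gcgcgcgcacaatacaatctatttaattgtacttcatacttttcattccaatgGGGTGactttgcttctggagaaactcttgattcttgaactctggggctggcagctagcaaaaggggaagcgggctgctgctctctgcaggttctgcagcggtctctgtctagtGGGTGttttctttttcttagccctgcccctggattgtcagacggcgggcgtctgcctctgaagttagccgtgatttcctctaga
Ednra, chr8:77724465-77724702, minus strand: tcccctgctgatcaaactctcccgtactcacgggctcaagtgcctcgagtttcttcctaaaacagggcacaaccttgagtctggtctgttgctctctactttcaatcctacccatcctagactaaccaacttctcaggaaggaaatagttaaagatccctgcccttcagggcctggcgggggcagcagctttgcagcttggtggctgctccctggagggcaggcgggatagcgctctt
The Klf2 run held a match to the MEF2 letters, 118 to 109 bases before the RefSeq start. Of 27025 promoters, each searched over 250 bases, 3.23% held one. MEF2 factors are known regulators of Klf2. The Edn1 run held GGGTG, the reverse complement of the KLF letters, at 197 and 84 bases before the start, and 51.3% of promoters held those letters. For Klf2, the part of the 250 bases that lies inside the annotated gene and is not printed also held GGGTG, 19 to 15 bases before the start. The Ednra run held AGGAA or its complement at 3 places and none of the letters marked in capitals, and 60.2% of promoters held AGGAA. The shares for the other letters were 6.87% for AP-1, 10.3% for GATA factors, 13.0% for the TATA box and 2.90% for ACCGGAA. A match here describes letters, not a bound site.

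Libraries held 12872706 to 15690506 reads on genes, so that 3 counts, taken as the limit that a count of 0 allows, stood at 0.191 to 0.233 CPM (counts-per-million reads on genes). In EC libraries the 8 EC markers, which include Pecam1, Kdr and Clec4g, were all higher than in HSC libraries, and all 8 HSC markers, which include Reln, Dcn and Col14a1, were lower. Zeb2 itself stood at 106 and 106 CPM in the WT-labelled EC libraries and at 199 and 130 CPM in the KO-labelled ones (log2 difference 0.62 ± 0.24 SE, adjusted p = 0.303, edgeR's quasi-likelihood test). Counts over the whole gene do not measure loss of a single exon, so these Zeb2 counts gave no support for the labels. The paper reports efficient endothelial deletion of Zeb2, at the mRNA level and by gain of the eGFP reporter. The libraries are called by their labels throughout. Hepatocyte transcripts differed between labels in EC libraries: the median level of 857 hepatocyte-enriched genes, relative to the WT-labelled hepatocyte libraries, was 11.1% and 22.9% in the WT-labelled EC libraries against 3.34% and 2.28% in the KO-labelled ones. None of the 10 genes was among those 857.

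The first question was where the source of each signal and the machinery that answers it were expressed. Nos3, Klf2 and Edn1 were higher in EC than in HSC libraries, and both endothelin receptors and both cyclase subunits were higher in HSC, as the plot of all 16 libraries by gene shows. The maturing enzyme Ece1 and the downstream pair Prkg1 and Pde5a did not pass the threshold. In all, 3 of the 10 genes were called higher in EC, where 13.3% of the 17214 genes tested were, and 4 were called higher in HSC, where 12.8% were (edgeR's quasi-likelihood test on all 16 libraries, Benjamini-Hochberg adjusted p under 0.05). All 10 passed the filter on low counts. In bulk samples, fewer cells of a type and less RNA per cell cannot be told apart.

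**Figure D1:**
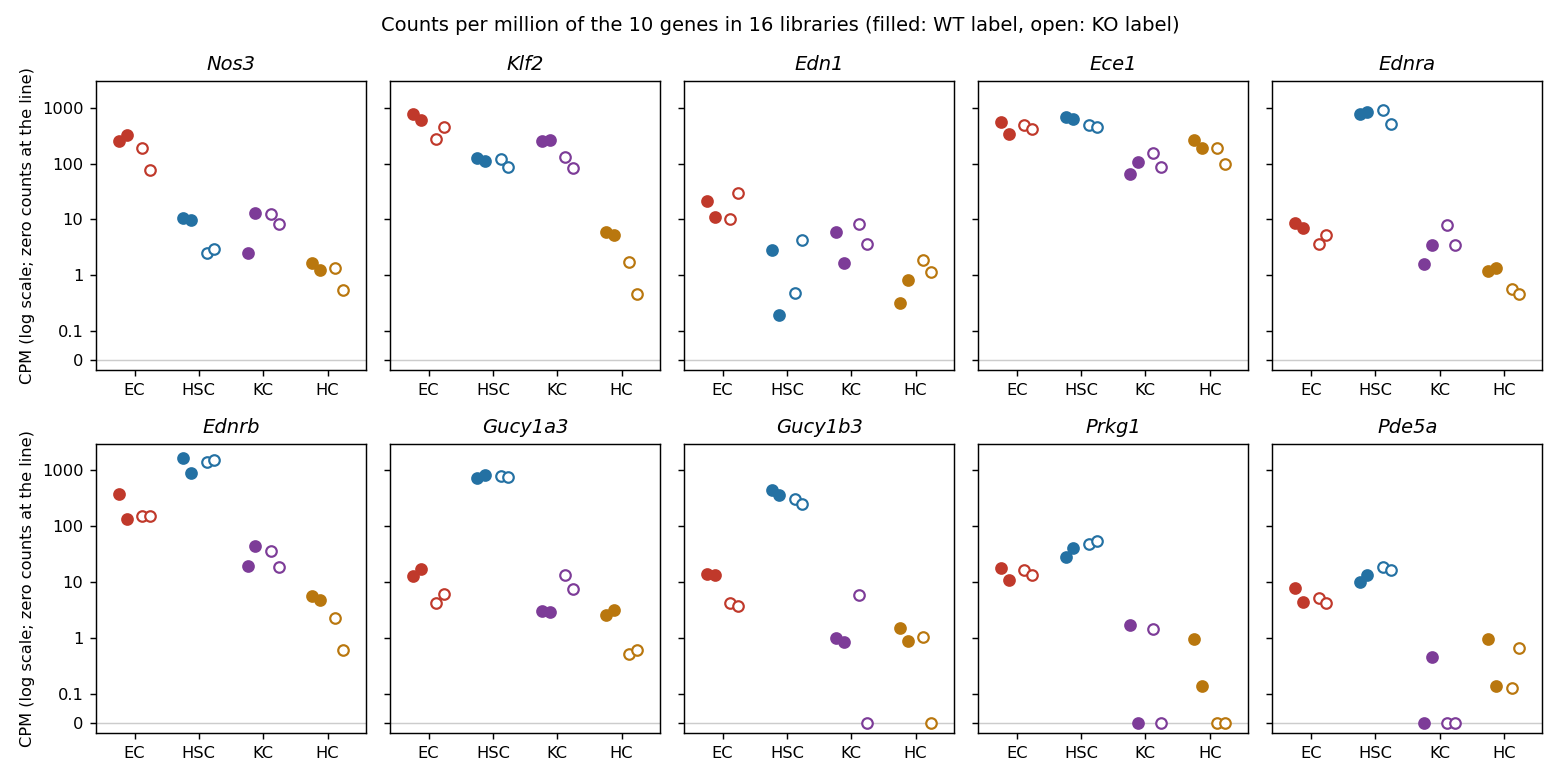
CPM (log scale, with libraries at 0 counts on the line marked 0) of the 10 genes in the EC, HSC, KC and HC libraries, 1 point per library, filled for the WT and open for the KO label. Nos3 and Klf2 are highest in the EC libraries, and Ednra, Ednrb, Gucy1a3 and Gucy1b3 are highest in the HSC libraries.

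Nos3 stood at 254 and 328 CPM in the WT-labelled EC libraries and at 187 and 76.7 CPM in the KO-labelled ones. The HSC libraries held 10.8 and 9.66 CPM under the WT label and 2.49 and 2.90 CPM under the KO label, so all 4 EC libraries lay above all 4 HSC libraries. The difference was 4.95 ± 0.46 on the log2 scale (SE, 4 libraries against 4, adjusted p = 1.02e-05). Of the sum of the cell type means, 92.6% fell in EC. KC held 2.48 to 13.1 CPM and HC 0.539 to 1.66 CPM. Nos3 lies at chr5:24364810-24384474 on the plus strand and shares exonic bases with 2 genes on the other strand, 294 with Atg9b and 1040 with the antisense gene Gm15587. Whether the counting used strand is not given in the sources used here. It is thus not known whether reads on the shared bases were counted for Nos3, for its neighbours or as ambiguous. Atg9b, an autophagy gene, had 211 to 491 counts in the EC libraries and Gm15587 had 79 to 174, against 1104 to 4217 for Nos3.

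Klf2 was the most abundant of the source genes in EC per length, at 283 ± 114 CPM per kb (SD, n = 4) against 51.1 ± 25.8 for Nos3 and 8.37 ± 4.26 for Edn1. The EC libraries held 768 and 596 CPM under the WT label and 273 and 457 CPM under the KO label. The HSC libraries held 87.7 to 128 CPM, all below the lowest EC library, with a difference of 1.94 ± 0.30 on the log2 scale (adjusted p = 0.000551). KC held 84.6 to 260 CPM. HC held 0.472 to 5.93 CPM.

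Edn1 was scarce in every cell type. EC libraries held 21.5 and 10.9 CPM (WT label) and 10.1 and 29.1 CPM (KO label), and HSC libraries held 2.88, 0.192, 0.484 and 4.36 CPM. The EC and HSC ranges did not overlap, and the log2 difference was 2.95 ± 0.90 (adjusted p = 0.0296). That call rested on single libraries: it was lost when EC WT 34 (adjusted p = 0.0889), EC KO 46 (0.116), HSC WT 40 (0.0864) or HSC KO 8 (0.0914) was left out, with log2 differences of 2.38 to 2.55. KC held 1.63 to 8.18 CPM, which overlapped the HSC range, and HC held 0.319 to 1.87 CPM. As a percentage of the WT-labelled KC level, the median Kupffer cell marker stood at 4.38% in HSC WT 32 and 0.836% in WT 40. It stood at 1.04% in HSC KO 8 and 5.13% in KO 20, and the part of such cells in the Edn1 values was not tested.

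Ece1, whose product cleaves the endothelin precursor, was not restricted to the source cells. HSC libraries held 672 and 632 CPM under the WT label and 499 and 444 CPM under the KO label, and EC libraries held 335 to 558 CPM. The ranges overlapped, and the difference of -0.54 ± 0.26 on the log2 scale did not pass the threshold (adjusted p = 0.148). HC held 99.6 to 262 CPM and KC 65.9 to 152 CPM.

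Ednra, the receptor that drives contraction, showed the largest difference of the 10 genes in this fit. HSC libraries held 777 and 849 CPM (WT label) and 907 and 513 CPM (KO label), and EC libraries held 8.58 and 6.91 CPM (WT label) and 3.62 and 5.28 CPM (KO label). The log2 difference was -7.24 ± 0.37 (adjusted p = 1.42e-07), and 98.6% of the sum of cell type means fell in HSC. KC held 1.61 to 8.11 CPM, a range that spanned most of the EC values.

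Ednrb, the receptor that in endothelium is linked to nitric oxide release, was higher in HSC but not absent from EC. HSC libraries held 1685 and 886 CPM under the WT label and 1393 and 1558 CPM under the KO label. EC libraries held 373, 135, 151 and 152 CPM, with WT 34 standing above the other three. The difference was -3.05 ± 0.44 on the log2 scale (adjusted p = 0.000311). With the WT libraries alone it was -2.61 and missed the threshold (adjusted p = 0.0520).

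The 2 receptors were therefore set against each other within each library. Ednra made up 2.25% (95% Wilson interval 1.89% to 2.68%), 4.89% (3.99% to 5.98%), 2.33% (1.79% to 3.05%) and 3.37% (2.70% to 4.19%) of the summed receptor counts in EC WT 34, WT 38, KO 6 and KO 46. In HSC it made up 31.6% and 48.9% under the WT label and 39.4% and 24.8% under the KO label. The mean was 3.21% ± 1.23 (SD, n = 4) in EC and 36.2% ± 10.4 (SD, n = 4) in HSC, and every HSC library lay above every EC library (two-sided exact permutation test over libraries, p = 0.0286, the smallest that 4 against 4 allows). Divided by exon length, the shares were 2.52% and 30.8%. Within HSC the labels overlapped (exact permutation p = 0.667, where 2 against 2 cannot go below 0.333). Intervals cover counting error only.

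**Figure D2:**
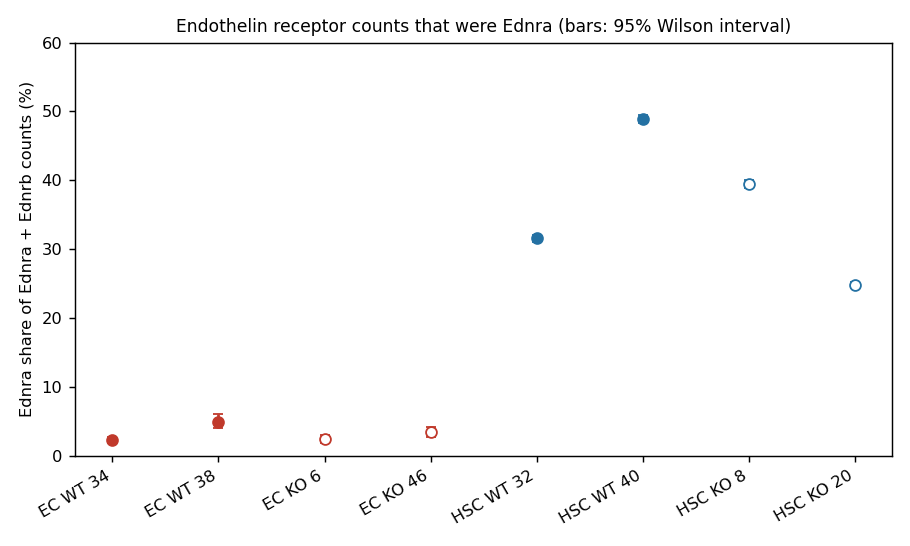
Ednra as a percentage of the Ednra and Ednrb counts in each EC (red) and HSC (blue) library, filled for the WT and open for the KO label, with 95% Wilson intervals. The 4 EC libraries lie between 2.25% and 4.89%, and the 4 HSC libraries between 24.8% and 48.9%.

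The subunits of the nitric oxide receptor were nearly confined to HSC libraries among the 4 cell types. Gucy1a3, the alpha subunit, now also named Gucy1a1, held 727 and 812 CPM (WT label) and 806 and 775 CPM (KO label) in HSC, and 12.8 and 17.5 CPM (WT label) and 4.32 and 6.26 CPM (KO label) in EC. The log2 difference was -6.69 ± 0.29 (adjusted p = 5.91e-08), and HSC held 97.7% of the sum of cell type means. The HSC libraries lay within 727 and 812 CPM (mean 780.2 ± 39.2, SD, n = 4).

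Gucy1b3, the beta subunit, now also named Gucy1b1, held 451 and 365 CPM (WT label) and 312 and 249 CPM (KO label) in HSC. EC libraries held 13.9 and 13.2 CPM (WT label) and 4.25 and 3.75 CPM (KO label), for a log2 difference of -5.76 ± 0.85 (adjusted p = 0.000348). Per length, HSC libraries held 112 ± 5.62 CPM per kb of Gucy1a3 and 87.6 ± 21.7 of Gucy1b3 (SD, n = 4). KC KO 43 and HC KO 41 had no Gucy1b3 count, which allows up to 0.203 and 0.202 CPM.

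Further down the pathway, Prkg1, the cGMP-dependent kinase, held 28.6 and 40.6 CPM (WT label) and 47.4 and 54.2 CPM (KO label) in HSC. EC libraries held 17.9, 10.7, 16.4 and 13.6 CPM, all below the HSC libraries. The log2 difference of -1.76 ± 0.85 did not pass the threshold in the fit of 16 libraries (adjusted p = 0.155), but did in the 8 EC and HSC libraries alone (adjusted p = 0.000974). Pde5a, the cGMP phosphodiesterase, held 10.1 and 13.6 CPM (WT label) and 18.7 and 16.7 CPM (KO label) in HSC, and 7.88, 4.35, 5.29 and 4.24 CPM in EC. Its log2 difference of -1.66 ± 0.71 likewise missed the threshold in the larger fit (adjusted p = 0.113) and passed in the 8 libraries (adjusted p = 0.00427). Pde5a had no count in 3 of 4 KC libraries and Prkg1 had none in 2 of 4, which for each allows up to 0.191 to 0.233 CPM, the range over all libraries.

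**Figure D3:**
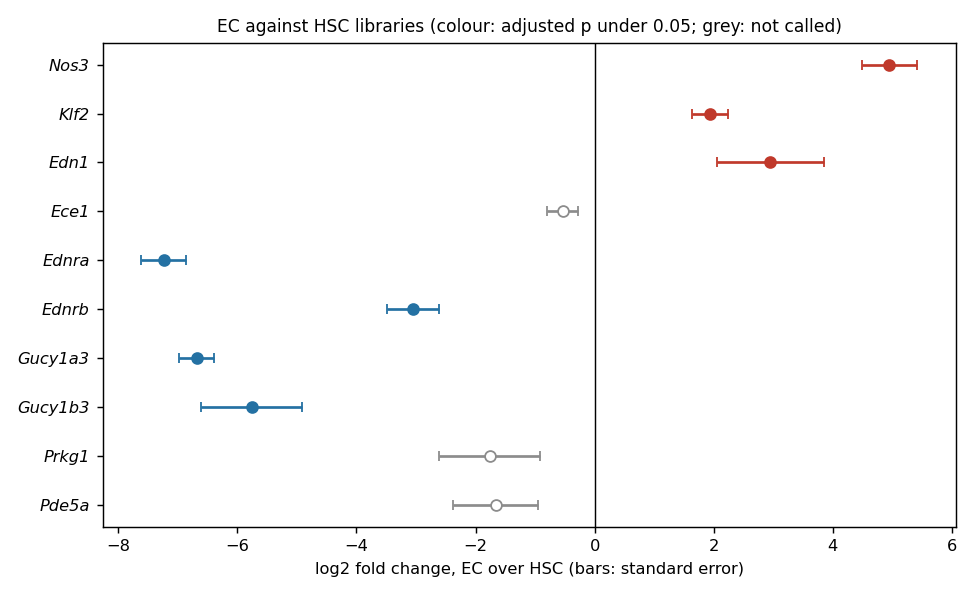
Log2 fold change of EC over HSC libraries for the 10 genes (points) with its standard error (bars), from the fit of all 16 libraries. Nos3, Klf2 and Edn1 lie to the right and Ednra, Ednrb, Gucy1a3 and Gucy1b3 to the left, in colour where adjusted p was under 0.05, and Ece1, Prkg1 and Pde5a are grey.

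The response genes in EC libraries were set beside the 8 HSC markers, which EC should lack. As a percentage of the mean in WT-labelled HSC libraries, the median of those markers was 1.33% and 2.47% in the WT-labelled EC libraries and 0.489% and 0.785% in the KO-labelled ones, with 1 or more markers at 0 in each KO-labelled library. Gucy1a3 stood at 1.67% and 2.27% against 0.561% and 0.813%. Gucy1b3 stood at 3.41% and 3.24% against 1.04% and 0.921%. Except for Gucy1b3 in EC WT 34, where the highest marker was at 2.61%, these values lay within the range of the markers, as did Ednra at 0.445% to 1.06%. Ednrb at 10.5% to 29.0%, Prkg1 at 31.0% to 51.7% and Pde5a at 35.8% to 66.6% lay above the highest HSC marker of every EC library, which was 1.79% to 4.91%. On the same scale, the 7 vascular smooth muscle markers had medians of 25.6% and 104% in EC WT 34 and WT 38. In EC KO 6 and KO 46 the medians were 26.1% and 21.7%. Single markers ran from 0% to 491% in EC WT 34 and from 6.38% to 1396% in WT 38. They ran from 2.69% to 892% in KO 6 and from 2.69% to 434% in KO 46. Almost any value lies within such ranges, so they do not place Ednrb, Prkg1 and Pde5a. The part of such cells was not tested. In the other direction, the 8 EC markers had medians of 4.02% and 2.18% of the WT-labelled EC level in the WT-labelled HSC libraries and 1.23% and 1.96% in the KO-labelled ones. Nos3 stood at 3.72% and 3.32% against 0.856% and 0.999%. Klf2 in HSC stood at 12.9% to 18.7%, above the highest EC marker of 5.68% to 8.23%.

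**Figure D4:**
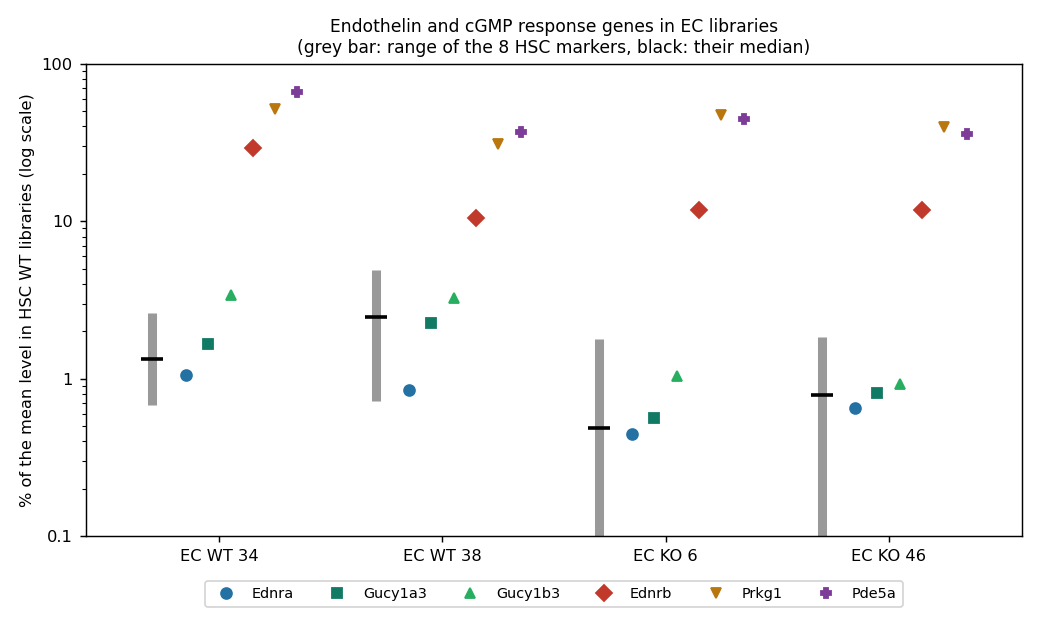
Levels of 6 response genes in each EC library as a percentage of their mean in WT-labelled HSC libraries (log scale). Grey bars span the 8 HSC markers and black ticks are their medians, and bars that reach the lower edge include a marker at 0. Ednra, Gucy1a3 and Gucy1b3 lie near the markers, and Ednrb, Prkg1 and Pde5a lie above them.

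The other cell types set the order of each gene. By mean CPM, Nos3, Klf2 and Edn1 ran from EC through KC and HSC to HC. Ednra, Ednrb, Gucy1a3, Gucy1b3 and Prkg1 ran from HSC through EC and KC to HC, and Ece1 and Pde5a from HSC through EC and HC to KC. Of the 10 genes, 6 were called between EC and KC, where 32% of all genes were called in either direction, 8 between EC and HC (58.7%), 7 between HSC and KC (42.9%), 7 between HSC and HC (58.4%) and 7 between KC and HC (55.6%). The TMM scaling factor of HC libraries relative to EC libraries was -1.37 on the log2 scale, so a difference with HC depends on that scaling.

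Neighbours in these orders did not all differ. Nos3 was called between EC and KC (4.15 ± 0.44 on the log2 scale, adjusted p = 2.37e-05), but not between HSC and KC (adjusted p = 0.131). Klf2 was called between EC and KC (1.28 ± 0.30, adjusted p = 0.00593) and not between HSC and KC (adjusted p = 0.0912). Edn1 was called between neither pair (adjusted p = 0.179 between EC and KC, and 0.217 between HSC and KC). Ednra and Gucy1a3 were not called between EC and KC (adjusted p = 0.449 and 0.264), whereas Ednrb was (2.43 ± 0.43, adjusted p = 0.00104). Ece1 was not called between EC and HC (adjusted p = 0.984), where the sign of its difference turned with the scaling.

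The second question was whether the KO label altered the axis in any cell type. None of the 10 genes passed the threshold in EC, HSC, KC or HC, as the plot of KO over WT label shows. Of all genes tested, 2.08% were called in EC, 0% in HSC, 0% in KC and 0% in HC, so a lack of calls in HSC, KC and HC was shared by the whole table. At an unadjusted p under 0.05, 4 of 10 genes differed in EC, 1 of 10 in HSC, 2 of 9 in KC and 3 of 9 in HC, beside 15% of all genes tested in EC, 8.75% in HSC, 5.09% in KC and 7.11% in HC. DESeq2 called 2 genes in EC (Nos3 and Gucy1b3), 1 in HSC (Nos3), 1 in KC (Klf2) and 0 in HC. Of all genes with an adjusted p, DESeq2 called 6.39% in EC, 2.7% in HSC, 0.51% in KC and 0.246% in HC. Pde5a in KC and Prkg1 in HC did not pass the filter on low counts.

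**Figure D5:**
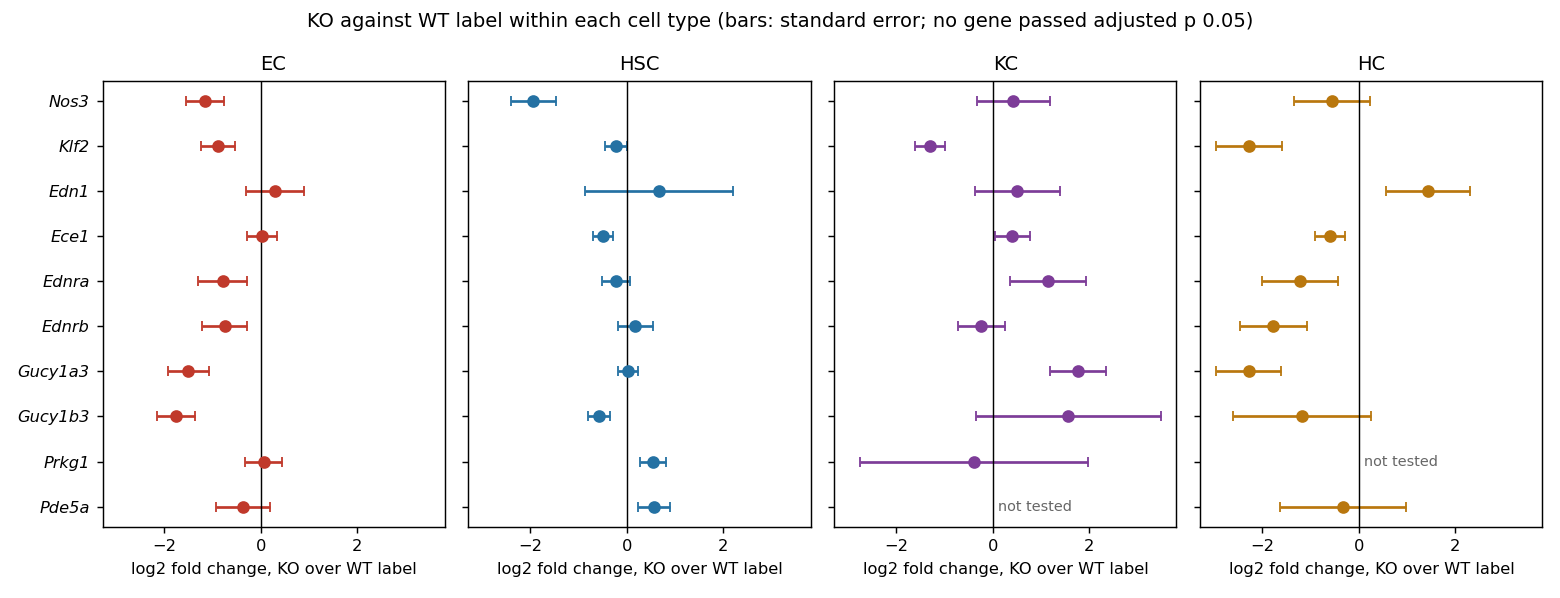
Log2 fold change of the KO over the WT label (points) and its standard error (bars) for each of the 10 genes in EC, HSC, KC and HC libraries, 2 against 2 in each. No point passed the threshold, and in EC the lowest values are those of Gucy1b3, Gucy1a3, Nos3 and Klf2.

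In EC, the labels did not overlap on TMM-scaled CPM for 5 of 10 genes (Nos3, Klf2, Ednra, Gucy1a3 and Gucy1b3), against 48.5% of all genes tested. Each of the 5 was lower under the KO label, whereas the 48.5% counts both directions together. Lower values were also more common over all genes: at an unadjusted p under 0.05 in edgeR's test, 1481 were lower and 711 higher. Nos3 in the KO-labelled libraries, at 187 and 76.7 CPM, lay below 254 and 328 CPM, for a log2 difference of -1.16 ± 0.39 (adjusted p = 0.248). Leaving out EC KO 46 moved it to -0.68 and leaving out EC KO 6 to -1.85. Klf2 differed by -0.89 ± 0.35 (adjusted p = 0.304), with -0.51 without EC KO 6 and -1.37 without EC KO 46. The libraries thus disagreed on which of the 2 genes differed more: KO 46 had the lower Nos3 and KO 6 the lower Klf2. Atg9b, the neighbour on the other strand, was 24.0, 38.1, 21.0 and 14.7 CPM in EC WT 34, WT 38, KO 6 and KO 46. Whether reads on the bases shared with Atg9b raised or lowered the Nos3 values was not tested.

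The cyclase subunits had the lowest values in EC, at -1.76 ± 0.40 for Gucy1b3 (adjusted p = 0.107) and -1.50 ± 0.43 for Gucy1a3 (adjusted p = 0.177). The HSC markers moved the same way, with a median log2 difference of -1.47 over the 7 that could be tested, 0 of them positive and 0 called, and their part in the subunits' values was not tested. Ednrb differed by -0.75 ± 0.46 (adjusted p = 0.514), which was -1.32 and called without EC WT 38 (adjusted p = 0.0326). Edn1 at 0.30 ± 0.60, Prkg1 at 0.06 ± 0.38 and Ece1 at 0.02 ± 0.31 lay within 1 SE of no difference (adjusted p = 0.873, 0.967 and 0.989). Pde5a differed by -0.37 ± 0.55 and Ednra by -0.79 ± 0.51 (adjusted p = 0.816 and 0.537).

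In HSC, the label values did not overlap for 5 of 10 genes (Ece1, Gucy1b3, Nos3, Pde5a and Prkg1), against 40.5% of all genes. The receiving genes had small differences: Ednra -0.23 ± 0.29, Ednrb 0.18 ± 0.36 and Gucy1a3 0.02 ± 0.20 on the log2 scale (adjusted p = 0.884, 0.939 and 0.989). Gucy1b3 was lower in both KO-labelled libraries, by -0.57 ± 0.23 (adjusted p = 0.573), while Prkg1 and Pde5a were higher in both, by 0.55 ± 0.27 and 0.56 ± 0.32 (adjusted p = 0.656 and 0.722). The vascular smooth muscle markers summed to 502 and 772 CPM under the WT label and 777 and 996 CPM under the KO label, with a median log2 difference of 1.44 over the 5 tested, all positive and 0 called. Their part in the Prkg1 and Pde5a values was not tested. Ece1 differed by -0.49 ± 0.20 (adjusted p = 0.578). Nos3 differed by -1.94 ± 0.46 (adjusted p = 0.356) at 36 to 169 counts a library. The EC markers had a median log2 difference of -0.79 over 8, 1 of them positive, and their part in the Nos3 value was not tested. Klf2 differed by -0.23 ± 0.22 (adjusted p = 0.853). The hepatocyte-enriched genes in HSC had a median of 3.91% and 7.94% of the WT-labelled hepatocyte level under the WT label and 0.915% and 1.39% under the KO label, and all 7 hepatocyte markers had an unadjusted p under 0.05 (median log2 difference -2.31, 0 called). Their part in these label differences was not tested.

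In KC, the labels did not overlap on TMM-scaled CPM for 3 of 9 genes (Ednra, Gucy1a3 and Klf2), against 37.3% of all genes. Ednra was separated only by that scaling: unscaled, it stood at 3.46 CPM in KC WT 39 and 3.45 CPM in KC KO 43. Klf2 stood at 248 and 260 CPM under the WT label and at 132 and 84.6 CPM under the KO label, a log2 difference of -1.30 ± 0.31 (adjusted p = 0.933). The 16 immediate early and dissociation genes, which respond to cell isolation, summed to 31394 and 40504 CPM under the WT label and 16507 and 9423 CPM under the KO label. Their median log2 difference was -1.20, with 1 of 16 positive and 0 called, and their part in the Klf2 value was not tested. In EC the same sum was 26929 and 41106 CPM under the WT label and 39393 and 37541 CPM under the KO label. Gucy1a3 in KC was higher under the KO label, at 13.6 and 7.58 CPM against 3.02 and 2.87 CPM (1.77 ± 0.58, adjusted p = 0.933). The HSC markers in those libraries had a median of 1.30% and 0.472% of the HSC level against 0.563% and 0.282%, and the vascular smooth muscle markers summed to 72.7 and 38.9 CPM against 16.8 and 15.1 CPM (median log2 difference 2.12 over 6, all positive, 0 called). The hepatocyte-enriched genes had a median of 9.72% and 11.4% of the hepatocyte level against 4.73% and 8.57%. Those genes were chosen for a low mean in the WT-labelled KC libraries, which by itself favours higher values under the KO label. The hepatocyte markers, not chosen that way, had a median log2 difference of 0.57 over 7, all positive and 0 called. The part of these lists was not tested either.

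In HC, where every gene but Ece1 was at or below 5.93 CPM, labels did not overlap for 6 of 9 genes (Ece1, Edn1, Ednra, Ednrb, Gucy1a3 and Klf2), against 40.8% of all genes. Klf2 and Gucy1a3 each differed by -2.28 (SE 0.68 and 0.67, adjusted p = 0.700 for both). The Kupffer cell markers in HC summed to 350 and 169 CPM under the WT label and 142 and 105 CPM under the KO label, with a median log2 difference of -1.03, 0 of 7 positive and 0 called. The immediate early and dissociation genes summed to 6273 and 6512 CPM against 5056 and 3818 CPM. The part of either list in the Klf2 value was not tested. Ece1, the member with most counts in HC, differed by -0.60 ± 0.32 (adjusted p = 0.723).

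Whether the label difference itself differed between cell types was tested by interaction. Of all genes, 0.0349% were called for EC against HSC, 2.07% for EC against KC, 0.0697% for EC against HC, 0.593% for HSC against KC, 0.0755% for HSC against HC and 0.0116% for KC against HC. Among the 10 genes, 1 was called for EC against KC and 1 for KC against HC, both Gucy1a3, with differences of -3.30 ± 0.48 (adjusted p = 0.0148) and 4.05 ± 0.53 (adjusted p = 0.0482). The first was lost without EC WT 38 (adjusted p = 0.0619) or EC KO 46 (0.0682), and the second without any of 12 libraries, with adjusted p of up to 0.162. Neither Nos3 nor Klf2 was called in any of the 6 interactions, so their label differences were not shown to differ between cell types.

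The rest of both pathways divided between EC and HSC in the same fit, in lists that leave out the 10 genes. Of 35 nitric oxide and cGMP genes, 32 were tested, 11 were higher in EC and 6 in HSC, with a median log2 difference of 0.03 against 0.02 over all genes. Of all genes tested, 13.3% were called higher in EC and 12.8% in HSC. The EC side held Nostrin, which binds and traffics the synthase, at a mean of 301 CPM in EC against 13.4 in HSC (4.26 ± 0.21, adjusted p = 8.76e-08). It also held the cGMP-stimulated phosphodiesterase Pde2a (1589 against 37.0 CPM, 5.37 ± 0.57), the caveolar synthase inhibitor Cav1 (67.3 against 5.50 CPM, 3.34 ± 0.57) and Ddah1, which clears methylarginine inhibitors (71.2 against 8.44 CPM, 3.16 ± 0.34). The HSC side held the phosphodiesterases Pde1a (202 against 1.86 CPM, -7.04 ± 0.59) and Pde3a (89.9 against 1.24 CPM, -7.07 ± 0.93). It also held the cyclase subunit Gucy1a2 (27.5 against 0.538 CPM, -6.84 ± 1.23) and the neuronal synthase Nos1 (7.67 CPM against 0.0522 CPM, a mean under the counting limit). Adjusted p for these 7 was 2.97e-05, 0.00109, 3.08e-05, 4.54e-06, 0.000220, 0.00191 and 0.00867 in that order.

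Of 31 endothelin pathway genes, 28 were tested, 8 were higher in EC and 6 in HSC, with a median of 0.10. Over all genes the shares were 13.3% higher in EC and 12.8% higher in HSC. HSC libraries held 4362 CPM of Rgs5 and 903 CPM of Rgs4, regulators that shorten signals from G protein-coupled receptors, against 47.4 and 13.2 CPM in EC (-6.86 ± 0.48 and -6.65 ± 0.87, adjusted p = 1.01e-06 and 0.000144). The phospholipase Plcb2 was also higher in HSC (10.8 against 3.83 CPM, -2.07 ± 0.40, adjusted p = 0.00253), as was the channel Trpc1 (6.94 CPM against 0.209 CPM, near the counting limit, adjusted p = 0.00901). EC libraries held more of the phospholipase Plcb4 (95.1 against 5.76 CPM, 3.81 ± 0.44, adjusted p = 5.69e-05), of Rgs2 (158 against 35.3 CPM, 1.95 ± 0.35, adjusted p = 0.00151) and of the inositol trisphosphate receptor Itpr3 (10.6 against 1.52 CPM, 2.60 ± 0.49, adjusted p = 0.00202).

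Of 18 Klf2 flow-response genes, all were tested, 6 were higher in EC and 1 in HSC, with a median of 0.64. Over all genes the shares were 13.3% higher in EC and 12.8% higher in HSC. The sphingosine receptor S1pr1 (341 against 7.82 CPM, 5.38 ± 0.33, adjusted p = 3.47e-07), Mef2c (184 against 37.3 CPM, 2.04 ± 0.18, adjusted p = 7.50e-06), Mef2a (135 against 36.5 CPM, 1.62 ± 0.15, adjusted p = 1.10e-05) and Klf4 (232 against 85.1 CPM, 1.18 ± 0.32, adjusted p = 0.0182) were higher in EC. Adrenomedullin, Adm, was higher in HSC (134 against 95.4 CPM, -0.86 ± 0.20, adjusted p = 0.00753). Between labels, no gene of these 3 lists was called in any cell type. In EC the median label difference was -0.09 over 28 nitric oxide genes, -0.14 over 25 endothelin genes and 0.06 over 18 flow-response genes, with -0.01 over all genes, and 3, 6 and 3 of them had an unadjusted p under 0.05, where 15% of all genes did. In HSC the medians were -0.19 over 30, 0.06 over 25 and 0.21 over 18 genes, beside 0.02 over all. In KC they were 0.30, 0.10 and 0.20, and in HC 0.17, -0.10 and 0.12.

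The genes whose log2 CPM ran closest to each of the 10 over the 16 libraries, among 10461 genes, are given as a description, since cell type and library are shared by all points. For Nos3 they were Npr1, a natriuretic peptide receptor that also makes cGMP, and Adgrf5 (Pearson's r = 0.984 and 0.983). For Klf2 they were Klf4 and Myo7a (0.982 and 0.979), and for Edn1 Slc25a3 and Fabp4 (0.900 and 0.895), the lowest values of the set. Fhl1 came first for both Ednra (0.991) and Gucy1a3 (0.990), followed by Rgs5 (0.991) and Ngfr (0.989). For Gucy1b3 they were S1pr3 and Ddr2 (0.995 and 0.984), and for Ednrb Hpse and S100a11 (0.992 and 0.983). Prkg1 ran closest to Cdh4 and Pla2r1 (0.968 and 0.967), Pde5a to A230050P20Rik and Nfic (0.966 and 0.959), and Ece1 to Bace1, another membrane-bound protease, and Snx33 (0.968 and 0.965).

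Positions of the other genes on GRCm38 were chr8:72319033-72321656 for Klf2, chr13:42301476-42307990 for Edn1, chr4:137862237-137965229 for Ece1, chr8:77663031-77724464 for Ednra and chr14:103814625-103844402 for Ednrb. Gucy1a3 at chr3:82092427-82145789 and Gucy1b3 at chr3:82032006-82074689 are neighbours on the minus strand of chromosome 3. Pde5a lies on the same chromosome at chr3:122728947-122859374, and Prkg1 at chr19:30564489-31765033. Ednra shares 91 exonic bases with 4933431K23Rik on the other strand, which had 0 counts in EC and 21 to 47 in HSC libraries. Pde5a shares 55 with 4930447N08Rik, which had at most 4 counts in a library, and Edn1 shares 35 with Gm47118, not analysed here.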

How the data were processed

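Counts were measured in 16 libraries of 4 sorted or centrifuged mouse liver cell types, 2 for each genotype label. The authors deposited raw counts per gene, 1 file per library, and the submitters' processing notes name Trimmomatic 0.32, HISAT2 2.1.0, HTSeq 0.9.1, edgeR and the GRCm38 build. The sources name both Smart-seq2 and a stranded TruSeq kit, and the strand setting of the counting is not given in the sources used here. The 5 summary lines of each file were left out of library sizes. Of all counts of a file, gene and summary lines together, 1.31% to 14.0% were on no gene, 2.88% to 4.91% ambiguous, 3.98% to 6.23% unaligned and 24.8% to 47.9% aligned more than once. Of the 47729 identifiers, 98.9% were in GENCODE M21, which gave positions and exon lengths.

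CPM were computed from reads on genes. Overlap of labels was judged on TMM-scaled CPM within each cell type, whereas the CPM printed for libraries are not scaled. Tests used edgeR 4.0.16 in R 4.3.3 (filterByExpr, TMM, quasi-likelihood test, Benjamini-Hochberg adjusted p under 0.05 over all genes), within each cell type for the labels and over all 16 libraries, with 8 group means, for cell types and interactions. The SE is the absolute log2 fold change over the square root of F. The receptor share was tested over libraries by exact permutation in scipy 1.17.1, two-sided. Alternatives were DESeq2 1.42.0, RLE factors, no filter, hepatocyte-enriched genes left out (at least 10 CPM in WT hepatocytes and 8 times the Kupffer cell mean), other sets of libraries and each library left out. Scaling by library totals, and all alternatives for the other pairs and interactions, were added after seeing the data. Only the edgeR fits were run on simulated counts, for the label comparisons, EC against HSC and the interaction of EC against KC. Those counts held no differences between groups beyond the genes changed on purpose, unlike these data. The 10 genes and all lists were chosen with earlier results of these data known. Named list genes passed the threshold, or, where more than 4 did in a direction, were the 4 with the largest log2 fold change among those at 5 CPM or more in the higher group, and some genes that met this rule are not reported here. The 2 genes closest to each of the 10 were those of highest Pearson correlation of log2 CPM (prior count 2) among genes at 10 CPM or more in a cell type.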

Additional observations from a re-analysis of the deposited data

Results flagged for a closer look

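The difference between the KO and WT labels of Gucy1a3, the alpha subunit of soluble guanylate cyclase, itself differed between cell types by edgeR's interaction test. It differed by -3.30 on the log2 scale for EC against KC (adjusted p = 0.0148), being lower under the KO label in both KO-labelled EC libraries and higher in both KO-labelled KC libraries. Over all alternatives it ranged from -3.65 to -2.76, and it no longer passed without EC WT 38 (adjusted p = 0.0619) or EC KO 46 (adjusted p = 0.0682). It differed by 4.05 for KC against HC (adjusted p = 0.0482), with both KO-labelled HC libraries below both WT-labelled ones, and ranged from 3.61 to 4.41. The second passed only narrowly: with any single WT or HC library, or either HSC KO library, left out, the adjusted p was 0.0553 to 0.162. In all 3 cell types Gucy1a3 stood at no more than 17.5 CPM, against 727 CPM or more in HSC libraries. Beside it, the median HSC marker stood at 1.33% and 2.47% of its HSC level in the WT-labelled and 0.489% and 0.785% in the KO-labelled EC libraries, and at 0.563% and 0.282% against 1.30% and 0.472% in KC. In HC it stood at 0.248% and 0.267% against 0.218% and 0.111%. The vascular smooth muscle markers in KC summed to 16.8 and 15.1 CPM under the WT label and 72.7 and 38.9 CPM under the KO label. The part of RNA from either cell type in these differences was not tested.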

How the results depend on the processing

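No paired analysis was made, because no replicate number recurs in any pair of groups compared. Some numbers are consecutive across cell types, as in EC WT 38, KC WT 39 and HSC WT 40. The paper isolated the 4 cell types at the same time, so such libraries may share a liver, which the labels do not state. Tests between cell types and of interactions treated libraries as independent and ignored any such pairing. For EC against HSC, 5 to 9 of the 10 genes were called over all alternatives and none changed direction, with 6 to 7 when a library was left out (Edn1 was lost without EC WT 34, EC KO 46, HSC WT 40 or HSC KO 8). Left out one at a time, libraries moved the receptor share difference between 28.7 and 36.8 percentage points, where the exact permutation test of 3 against 4 cannot go below p = 0.0571. Genes called between labels, 0 in each cell type above, numbered 2 in EC and 1 each in HSC and KC with DESeq2, 3 in EC and 1 each in KC and HC with no filter on low counts, 1 in EC with all 16 libraries in one fit, and 0 to 1 in EC when a library was left out (the 1 was Ednrb without EC WT 38). For the interactions, DESeq2 called 2 for EC against KC and 1 each for HSC against KC, HSC against HC and KC against HC. No filter called 3, 3, 4, 4 and 1 for EC against KC, HSC against KC, HSC against HC, KC against HC and EC against HC. Leaving out a library gave 0 to 1 for EC against KC, HSC against KC and KC against HC. The causes were not tested.

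Some directions turned. Without hepatocyte-enriched genes, the label difference of Ece1 in EC was -0.025 and that of Gucy1a3 in HSC -0.021. Between EC and HC, Ece1 was 1.33 with library totals only and 0.21 with no filter, and -0.073 to 0.40 with a library left out. Between HSC and HC, Edn1 was 0.00067 with DESeq2, 1.05 with library totals only and 0.24 with no filter, and -1.27 to 0.68 with a library left out. Between KC and HC, leaving out a library gave -3.92 to 3.65 for Gucy1b3 and -0.19 to 4.12 for Prkg1. For the label difference in EC it gave -0.32 to 0.48 for Ece1, -0.74 to 0.92 for Edn1, -1.32 to 0.21 for Ednrb, -0.75 to 0.17 for Pde5a and -0.28 to 0.52 for Prkg1. In HSC it gave -1.75 to 3.64 for Edn1, -0.62 to 0.069 for Ednra, -0.23 to 0.73 for Ednrb and -0.049 to 0.078 for Gucy1a3. In KC it gave -0.020 to 0.73 for Ece1, -0.19 to 1.90 for Edn1, -0.76 to 0.36 for Ednrb, -6.83 to 2.55 for Gucy1b3, -0.28 to 1.90 for Nos3 and -6.77 to 6.45 for Prkg1, and in HC -1.98 to 0.46 for Pde5a.

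Over all genes, label calls in EC numbered 305, against 996 with DESeq2, 1259 with no filter, 190 with library totals only, 0 without hepatocyte-enriched genes, 688 without EC WT 34, 58 without EC KO 6 and 3 without EC KO 46. In HSC, KC and HC, with 0 calls, DESeq2 gave 407, 75 and 31 and no filter 663, 159 and 227, and HSC had 178 with all 16 libraries in one fit. Leaving out a library gave up to 12 in KC and 55 in HC. Interaction calls were 357 for EC against KC and 102 for HSC against KC, and 1075 and 770 with DESeq2. Calls between EC and HSC were 4481, and 2191 with WT libraries only. Library totals only moved the median log2 difference of all genes from 0.02 to 0.27 (EC against HSC), 0.13 to 0.45 (EC against KC), 0.54 to 1.85 (EC against HC), 0.60 to 1.67 (HSC against HC) and 0.24 to 1.24 (KC against HC), and the EC and HSC calls from 2281 higher and 2200 lower to 3205 and 1760.

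Precision was limited by 2 libraries per group, with a biological coefficient of variation of 36.8% to 51.0% within cell types. A lone library was assumed to vary like the other groups.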

Other observations

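Other vasoactive systems also divided between EC and HSC libraries. Of 44 listed genes, 37 were tested, 7 were higher in EC and 15 in HSC, with a median log2 difference of -1.37 beside 0.02 over all genes (edgeR's quasi-likelihood test). Of all genes tested, 13.3% were called higher in EC and 12.8% in HSC. EC held the natriuretic peptide receptor Npr1 (372 CPM against 9.22 in HSC, 5.25 ± 0.45 SE, adjusted p = 5.17e-06), the adrenomedullin co-receptors Ramp2 (432 against 39.4 CPM, 3.22 ± 0.29, adjusted p = 7.56e-06) and Ramp3 (10.5 against 0.908 CPM, 3.27 ± 0.69, adjusted p = 0.00430), and the cyclooxygenase Ptgs1 (607 against 66.5 CPM, 2.93 ± 0.30, adjusted p = 2.18e-05). HSC held the vasoactive intestinal peptide receptor Vipr1 (1437 against 11.6 CPM, -7.90 ± 0.65, adjusted p = 3.64e-06), the sphingosine receptor S1pr3 (1094 against 12.7 CPM, -6.95 ± 0.99, adjusted p = 0.000268) and the prostaglandin receptor Ptger2 (186 against 2.03 CPM, -6.77 ± 0.56, adjusted p = 4.04e-06).

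Between labels, 2 of 30 tested genes of that list were lower in KO-labelled EC libraries, beside 288 of all 14631 genes tested. In EC, 10 of the 30 had an unadjusted p under 0.05, beside 15% of all genes. Angiotensinogen, Agt, a hepatocyte product, held 205 to 355 CPM under the WT and 31.5 to 44.8 CPM under the KO label (-2.88 ± 0.33, adjusted p = 0.0278), while all 7 hepatocyte markers were also lower (median -2.93). Vipr1 held 20.9 to 21.1 CPM against 2.16 to 2.43 CPM (-3.18 ± 0.39, adjusted p = 0.0290), beside HSC markers whose values stand in the report. The part of either cell type's RNA was not tested. In HSC, KC and HC the median label differences were -0.49, 0.33 and 0.05 and edgeR called no gene of the list, with 10 of 37, 4 of 30 and 0 of 23 at an unadjusted p under 0.05, beside 8.75%, 5.09% and 7.11% of all genes. Of the large-vessel EC markers, Cd34 was higher under the KO label in EC, at 194 to 231 CPM against 61.3 to 71.3 CPM (1.67 ± 0.22, adjusted p = 0.0293), and the other 6 tested were not called. These label calls in EC rest on a threshold that moved with the genes tested: with hepatocyte-enriched genes left out, no gene was called, and without EC KO 46, 3 were.

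Among markers of other cells, between EC and HSC the hepatocyte list had 4 of 7 higher in EC, the cholangiocyte list 3 of 5, the lymphocyte list 3 of 5 and the large-vessel EC list 3 of 8. Over all genes, 13.3% were called higher in EC and 12.8% higher in HSC. The vascular smooth muscle list had 4 of 7 higher in HSC (Tagln, Smtn, Myh11 and Acta2), the immediate early list 7 of 16 higher in HSC, and no Kupffer cell or mesothelial marker was called by edgeR (2 of 7 and 1 of 4 at an unadjusted p under 0.05).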
